A study of Mus musculus with 4 samples.

Results

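Nrp1, Sema3a, Plxna1, Plxna3 and Plxna4 encode a receptor, its secreted ligand and 3 signalling partners of axon guidance. These 5 genes, listed by name and chosen from the 22399 genes counted, were followed by maturation stage, by cell class and by odorant receptor in the main olfactory epithelium, the lining of the nose in which olfactory neurons are born and renewed. The 4 single-cell RNA libraries, 2 labelled female and 2 labelled male, came from wild-type C57BL/6J mice aged 3 months, with no treatment named, and the tissue was dissociated with papain. The labels do not say whether a library is 1 animal, so p-values measure the spread between these libraries, which may be technical. The title of the series concerns neurexins and the targeting of olfactory axons, and the 5 genes belong to another guidance system of the same axons.

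Sema3a is secreted and repels growth cones that carry Nrp1 (neuropilin-1). Nrp1 binds the ligand but has only a short cytoplasmic tail, and plexins of the A class form the complex with it and signal into the cell. In olfactory neurons, which each transcribe mainly 1 odorant receptor gene, the levels of Nrp1 and Sema3a are known to differ between neurons with different odorant receptors. They are known to sort olfactory axons before these reach the bulb, and cAMP signalling set by the odorant receptor is known to tune Nrp1.

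All 5 genes are annotated as protein-coding in GENCODE M21 on GRCm38. Of these, 3 are read from the plus strand: Nrp1 (ENSMUSG00000025810) at chr8:128358604-128503363, Sema3a (ENSMUSG00000028883) at chr5:13125414-13602565 and Plxna3 (ENSMUSG00000031398) at chrX:74329066-74344689. The minus strand of chromosome 6 carries Plxna1 (ENSMUSG00000030084, 89316314 to 89362620) and Plxna4 (ENSMUSG00000029765, 32144268 to 32588192). Counts were per gene, so isoforms were not separated.

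RefSeq start sites on GRCm38.p6 were matched for 3 of the 5 genes, namely Nrp1, Sema3a and Plxna3. The 250 bases before each start site are shown because across odorant receptors the Nrp1 and Plxna3 levels went together and Sema3a went the other way. The windows of Nrp1 and Sema3a lie inside the GENCODE gene bounds, which begin at 128358604 and 13125414. That of Plxna3 lies directly before its GENCODE start. Which start sites these neurons use was not tested. Capitals mark the GC box GGGCGG, searched on both strands, which 32.7% of 32851 such windows hold.
Nrp1 chr8:128358823-128359072, plus strand: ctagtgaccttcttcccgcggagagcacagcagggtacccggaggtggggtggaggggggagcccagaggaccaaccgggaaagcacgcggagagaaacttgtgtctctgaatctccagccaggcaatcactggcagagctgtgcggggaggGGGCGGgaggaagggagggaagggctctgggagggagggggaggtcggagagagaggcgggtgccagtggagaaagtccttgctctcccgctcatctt
Plxna3 chrX:74328816-74329065, plus strand: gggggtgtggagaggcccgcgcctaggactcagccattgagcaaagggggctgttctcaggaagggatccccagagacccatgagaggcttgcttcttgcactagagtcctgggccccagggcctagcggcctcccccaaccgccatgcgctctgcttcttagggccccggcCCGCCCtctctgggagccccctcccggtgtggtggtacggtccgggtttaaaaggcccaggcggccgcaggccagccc
Sema3a chr5:13396534-13396783, plus strand: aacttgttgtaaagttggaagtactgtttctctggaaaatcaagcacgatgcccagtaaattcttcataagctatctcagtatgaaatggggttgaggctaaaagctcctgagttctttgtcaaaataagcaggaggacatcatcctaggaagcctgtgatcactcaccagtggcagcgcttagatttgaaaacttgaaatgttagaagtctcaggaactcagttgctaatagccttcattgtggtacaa
The windows of Nrp1 and Plxna3 hold 1 GC box each and the window of Sema3a holds none. Their G and C content is 64.4% for Nrp1, 68.0% for Plxna3 and 40.8% for Sema3a, against a median of 52.4% over all windows. The other motifs searched, also on both strands, were the homeodomain core TAATTA (in 4.84% of all windows), the cAMP response element half-site TGACG (17.8%) and the E-box CAGCTG (13.001%). None of these letters occurs in the 3 windows, which says nothing about the factors. The GC box was added after the sequences had been read.

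The libraries held between 100725429 and 111577458 UMIs (unique molecular identifiers, each marking 1 captured RNA molecule), and 36385 cells were kept. Each pair of libraries shared between 106 and 127 cell barcodes. The sex labels went with the Y-linked Ddx3y, which had 0 UMIs in both female libraries and 2728 and 2715 in the male ones. Olfactory neurons were staged by 2 standard markers, Gap43 for growing axons and Omp for maturity. Immature neurons were positive for Gap43 alone, transitional neurons for both and mature neurons for Omp alone, where positive meant at least 3 UMIs and at least 5 Gap43 or 10 Omp UMIs per 10000. The gates held 2202 immature, 928 transitional and 19590 mature neurons, with at least 201 in every library. Their median depths were 10678.5, 13015.5 and 7746 UMIs in the same order, and the clusters named immature and mature neurons, which used no gate, had 11017 and 7513. Clusters left without a cell type name, some of mixed identity, held 30.5% of the immature, 80.1% of the transitional and 18.0% of the mature neurons. Gng8, a marker of immature neurons that set no gate, was at 908 ± 97.3 CPM (SD, n = 4) in immature and 12.4 ± 3.67 in mature neurons, and Cnga2, a marker of maturity, at 185 ± 8.42 and 970 ± 45.6.

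Among the 3 gated stages, the receptor Nrp1 and the ligand Sema3a were highest in immature neurons and fell with maturation, while Plxna3 and Plxna4 rose. Counts were summed per library and stage and given as CPM (counts per 1000000 UMIs of the sum). Nrp1 was at 110, 123, 121 and 125 CPM in the immature neurons of female 1, female 2, male 1 and male 2. It was at 66.1, 51.1, 50.4 and 68.3 CPM in transitional and at 39.0, 37.4, 41.6 and 35.6 CPM in mature neurons, in the same order. The 3 stages did not overlap, and the mean fell 3.12-fold from 120 ± 7.07 to 38.4 ± 2.53 CPM (SD, n = 4). The log2 difference of mature over immature was -1.41 (SE 0.09, adjusted p = 5.82e-07, edgeR's quasi-likelihood test with the library as a block and Benjamini-Hochberg adjustment, as in all stage tests below). TMM scaling put the median of all genes at -0.015 on this scale, and without it the median was -0.25, so stage differences are relative to the other genes.

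Sema3a was at 41.9, 36.4, 40.5 and 37.9 CPM in immature neurons, at 26.5, 22.7, 22.7 and 21.1 CPM in transitional neurons and at 7.27, 7.94, 7.21 and 8.03 CPM in mature neurons. Every immature library lay above every transitional one, and every transitional library above every mature one. The fall from immature to mature was 5.14-fold in mean CPM, and its log2 difference was -2.13 (SE 0.08, adjusted p = 1.70e-08 by edgeR). The summed markers of immediate neuronal precursors, the class with the highest Sema3a (223 CPM), moved the same way. Their summed level was 794 to 1062 CPM in immature, 326 to 512 in transitional and 35.8 to 48.8 in mature sums, against 3034 to 3635 in the precursors. Of these 5 markers 4 had UMIs in immature and transitional sums, where Neurod2 was at 0, and all 5 in mature sums. Neurod1 did not follow the sum, with means of 8.79 CPM in immature, 1.56 in transitional and 4.60 in mature neurons. Of the gated immature neurons, 2 (0.0908%) lay in the class named immediate neuronal precursors and 30.5% in unnamed clusters. The part of precursors in the Sema3a result was not tested. Markers of sustentacular cells, the supporting cells of the epithelium, were also present. All 5 markers of that list had UMIs, with a summed level of 4400 to 6350 CPM in immature, 1190 to 7149 in transitional and 3025 to 4829 in mature sums, against 41550 to 45858 in sustentacular cells. Sema3a was at 31.1 ± 2.54 CPM (SD, n = 4) in the sustentacular cells themselves. With the clusters of mixed identity left out, the summed sustentacular markers were at 254 to 319 CPM in immature and 321 to 376 in mature sums, and the precursor markers at 939 to 1213 and 30.6 to 44.2. Sema3a was then at 41.7 ± 2.65 CPM in immature and 5.64 ± 0.341 in mature neurons, a log2 difference of -2.63 (adjusted p = 8.55e-09 by edgeR).

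Plxna3 and Plxna4, the signalling partners with the larger changes, moved the opposite way. Plxna3 was at 34.5, 30.2, 30.0 and 31.3 CPM in immature, at 73.4, 65.6, 72.8 and 76.6 CPM in transitional and at 139, 132, 131 and 128 CPM in mature neurons. Plxna4 was at 47.9, 52.2, 42.9 and 47.7 CPM, at 120, 102, 117 and 112.3 CPM and at 155, 145, 151 and 142 CPM in the same stages. For both genes the 3 stages were separate, with no overlap of libraries. Their means rose 4.20-fold (log2 difference 2.30, SE 0.04, adjusted p = 1.97e-10 by edgeR) and 3.11-fold (1.87, SE 0.06, adjusted p = 4.68e-09 by edgeR).

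Plxna1 changed least with stage and had its increase before the loss of Gap43. It was at 69.2, 74.2, 73.7 and 71.6 CPM in immature neurons and at 113, 95.4, 92.2 and 88.7 CPM in transitional neurons. In mature neurons it was at 94.8, 88.8, 88.6 and 92.8 CPM, which overlapped the transitional values. The log2 difference was 0.57 (SE 0.06, adjusted p = 2.15e-05 by edgeR) for mature over immature and -0.0098 (SE 0.06, adjusted p = 0.917 by edgeR) for mature over transitional.

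All 5 genes passed the test between immature and mature neurons, in a comparison in which 72.3% of 13453 genes were called, so the number of calls is near the background. They also all passed between immature and transitional neurons, where 54.2% of genes were called. There the log2 differences were -0.87 for Nrp1, -0.60 for Sema3a, 0.58 for Plxna1, 1.34 for Plxna3 and 1.39 for Plxna4. From transitional to mature neurons 4 of the 5 passed, with 52.6% of genes called. The differences were -0.54 for Nrp1 (adjusted p = 0.0024 by edgeR), -1.53 for Sema3a, 0.96 for Plxna3 and 0.48 for Plxna4. The Nrp1 call of this last step was lost with gate levels doubled (log2 difference -0.36, adjusted p = 0.0536 by edgeR).

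**Figure D1:**
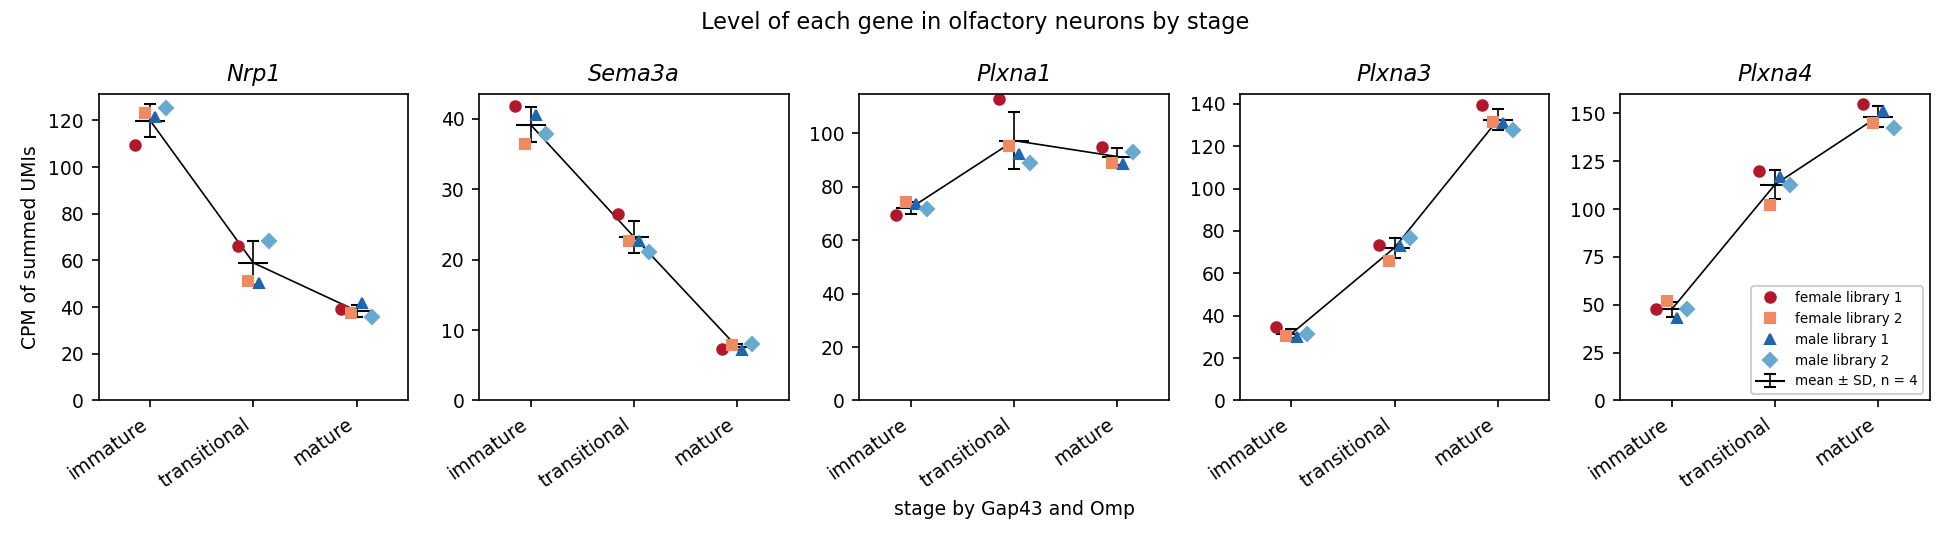
CPM of each gene (y axis, from 0) in immature, transitional and mature neurons (x axis), with 1 coloured point per library and the mean ± SD over 4 libraries in black. Nrp1 fell from a mean of 120 to 38.4 CPM and Sema3a from 39.2 to 7.61, while Plxna3 rose from 31.5 to 132 and Plxna4 from 47.7 to 148.

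A finer order along maturation was read from the share of Omp among the Omp and Gap43 UMIs of each neuron, in 5 bins of equal width. Nrp1 was at 118 ± 12.6 CPM (SD, n = 4) in the first bin and 136 ± 11.1 in the second, and the libraries of these bins overlapped. It was at 70.2 ± 14.2, 50.4 ± 8.59 and 38.6 ± 2.69 CPM in the third, the fourth and the fifth bin. Within every library the level was lower in the third bin than in the second and lower again in the fourth, and in 3 of 4 libraries it was lower still in the fifth, with male 1 at 39.5 and 42.1 CPM in the last 2 bins. The ranges of the second and the third bin did not overlap, while those of the third and the fourth did, as did the fourth and the fifth. Sema3a was at 40.7 ± 2.38, 34.4 ± 7.28 and 34.1 ± 5.10 CPM in the first bins, then at 23.8 ± 3.14 and, in the last, 7.74 ± 0.352, so its largest step was the last one. Plxna3 had its largest step there too, from 65.8 ± 9.90 to 131 ± 4.62 CPM. The mean of Plxna4 was higher in each successive bin, at 42.8 ± 6.29, 67.9 ± 8.85, 90.5 ± 16.6, 105 ± 12.8 and 148 ± 5.94 CPM. In female 1, however, Plxna4 was at 111.9 CPM in the third bin and 108.2 in the fourth. Its ranges overlapped between the second and the third bin and between the third and the fourth. Plxna1 had its highest mean in the fourth bin, at 113 ± 11.9 CPM, above the 91.3 ± 3.30 of the last bin, and every library of the fourth bin lay above every library of the last. The last bin held 19866 neurons and the third only 270, so the middle bins are the least precise.

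**Figure D2:**
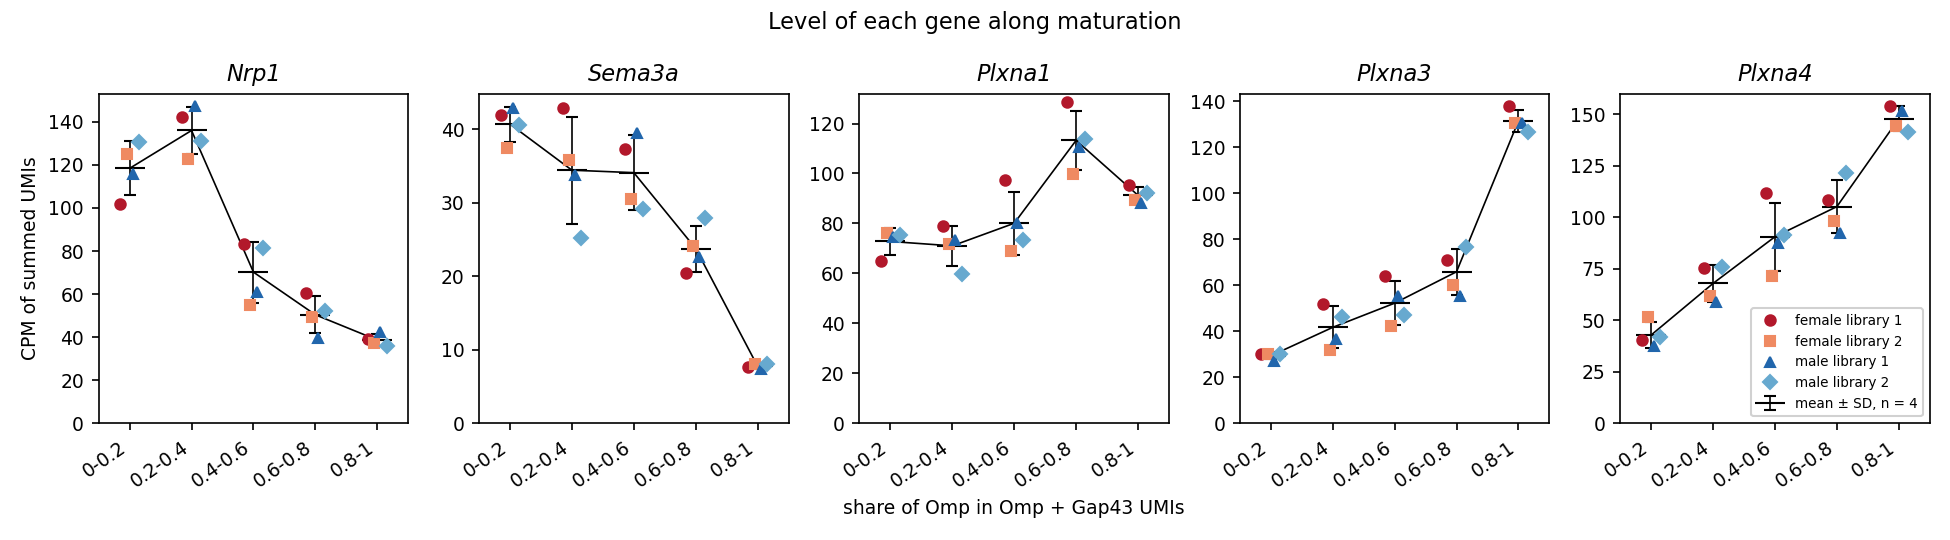
CPM of each gene (y axis, from 0) against the share of Omp in the sum of Omp and Gap43 UMIs per neuron (x axis, 5 bins), with 1 coloured point per library and the mean ± SD over 4 libraries in black. Nrp1 stayed between 102 and 148 CPM in the first 2 bins and was lower in the later ones, and Sema3a and Plxna3 had their largest steps into the last bin.

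Other genes of the pathway were counted from fixed lists, beside 72.3% of all 13453 genes called between immature and mature neurons (4929 higher and 4795 lower). Of 7 other class 3 semaphorins and neuropilins, 3 were tested between immature and mature neurons, and all 3 were called, 1 higher and 2 lower. Nrp2, the second neuropilin, fell from 273 ± 37.1 to 130 ± 14.04 CPM (SD, n = 4; log2 difference -0.84). Sema3f, a ligand that acts through it, also fell (-1.03), and Sema3e rose (2.75). Of the 6 other plexins, 1 rose and 5 fell, among them Plxnb2 (-0.92) and Plxnb1 (-0.80) as decreases and Plxnb3 (2.79) as the increase. The median of this list was -0.86, beside -0.015 over all genes tested. Of 13 membrane-bound semaphorins 10 were tested, with 3 higher and 5 lower. Sema7a, a ligand of plexin C1 and integrins, had the largest increase among the 4 named by level, from 113 ± 14.8 to 450 ± 30.9 CPM (2.23).

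For partners and downstream genes the counts stand beside 4929 higher and 4795 lower calls among all 13453 genes tested. Of 6 co-receptors of the complex, 4 were lower and none was higher in mature neurons. L1cam, an adhesion molecule that binds Nrp1, fell by 0.61 on the log2 scale, and Nrcam by 4.10. Of 24 genes that signal below plexins 23 were tested, with 2 higher and 18 lower and a median of -0.58. Dpysl3, a collapsin response mediator, dropped from 1415 ± 71.6 to 31.2 ± 1.97 CPM (-5.28), and Cfl1, the actin-severing protein cofilin, fell by 0.89. The kinase gene Gsk3b (-0.077, adjusted p = 0.125 by edgeR) and Rhoa (-0.026, adjusted p = 0.573 by edgeR) did not pass. Of 9 genes of cAMP signalling 2 were higher and 4 lower. Gnal and Adcy3, the G protein subunit and adenylyl cyclase of odour transduction, rose by 2.97 and 4.02 on the log2 scale, and Gnas, the related stimulatory subunit, fell by 2.17.

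Across the cell classes with at least 50 cells in every library, each gene had its own pattern. Nrp1 was at 126 ± 9.17 CPM (SD, n = 4) in clusters named immature neurons and at 118 ± 22.4 in macrophages, and these 2 classes overlapped. Mature neurons had 40.9 ± 3.44, ionocyte-like microvillar cells 28.7 ± 15.01, which overlapped them, and the other 5 classes had between 3.87 and 14.9 CPM. Immediate neuronal precursors, the class before immature neurons, had 5.65, 2.73, 4.11 and 2.99 CPM, from 22 UMIs in 607 cells.

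Sema3a was highest in immediate neuronal precursors, at 233, 203, 236 and 220 CPM in female 1, female 2, male 1 and male 2. Ionocyte-like microvillar cells, a rare non-neuronal type, followed with 198, 200, 168 and 208 CPM, and these 2 classes overlapped. Immature neurons had 41.6 ± 2.87, sustentacular cells 31.1 ± 2.54, globose basal cells 24.8 ± 5.36 and horizontal basal cells 22.7 ± 1.05 CPM, and the last 3 overlapped in part. The clusters named mature neurons had 4.91 ± 0.504 CPM, which overlapped macrophages (5.54 ± 4.16, from 13 UMIs) and respiratory secretory cells (5.81 ± 1.42). At least 1 Sema3a UMI was seen in 75.8% of the precursors, 3.24% of mature neurons and 1.79% of macrophages, classes whose cells had medians of 10029, 7513 and 4659.5 UMIs in all. Thinning every cell to 2000 UMIs, which dropped 12, 941 and 127 cells below that number, gave 35.5%, 0.959% and 0.627%. The share in mature neurons was thus close to that in macrophages, and how much of it is free RNA was not tested.

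Among these 9 classes Plxna1 and Plxna3 were highest in neurons, and Plxna4 was not. Plxna1 was at 84.1 ± 4.61 CPM in immature and 93.0 ± 2.55 in mature neurons, and between 11.3 and 27.6 CPM in the other 7 classes. Plxna3 was at 36.4 ± 2.13 and 150 ± 4.50 CPM in these neurons and at no more than 10.2 CPM on average elsewhere. Plxna4 was at 55.5 ± 3.85 and 162 ± 5.46 CPM in the neurons, but ionocyte-like microvillar cells had 575, 382, 423 and 339 CPM, above every library of these 2 neuron classes. Within the mature neurons, the shallow cluster with Hdac9 as its leading gene (4002 cells) had 393, 410, 382 and 366 CPM, which overlapped the ionocyte-like cells. This was not particular to Plxna4, since the other genes were also higher there than in mature neurons as a whole. Their means were 187 against 93.0 CPM for Plxna1, 244 against 150 for Plxna3, 70.0 against 40.9 for Nrp1 and 12.1 against 4.91 for Sema3a. At least 1 Plxna4 UMI was seen in 84.9% of the ionocyte-like cells, 63.2% of mature neurons and 6.36% of sustentacular cells. After thinning to 2000 UMIs the shares were 51.7%, 28.2% and 0.935%, and 50.7% in the mature neuron cluster led by Hdac9. Tuft microvillar cells, with only 40 cells in the smallest library, had 129, 99.3, 91.6 and 108 CPM of Plxna4, from 86 UMIs, and no order is read from so few cells.

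**Figure D3:**
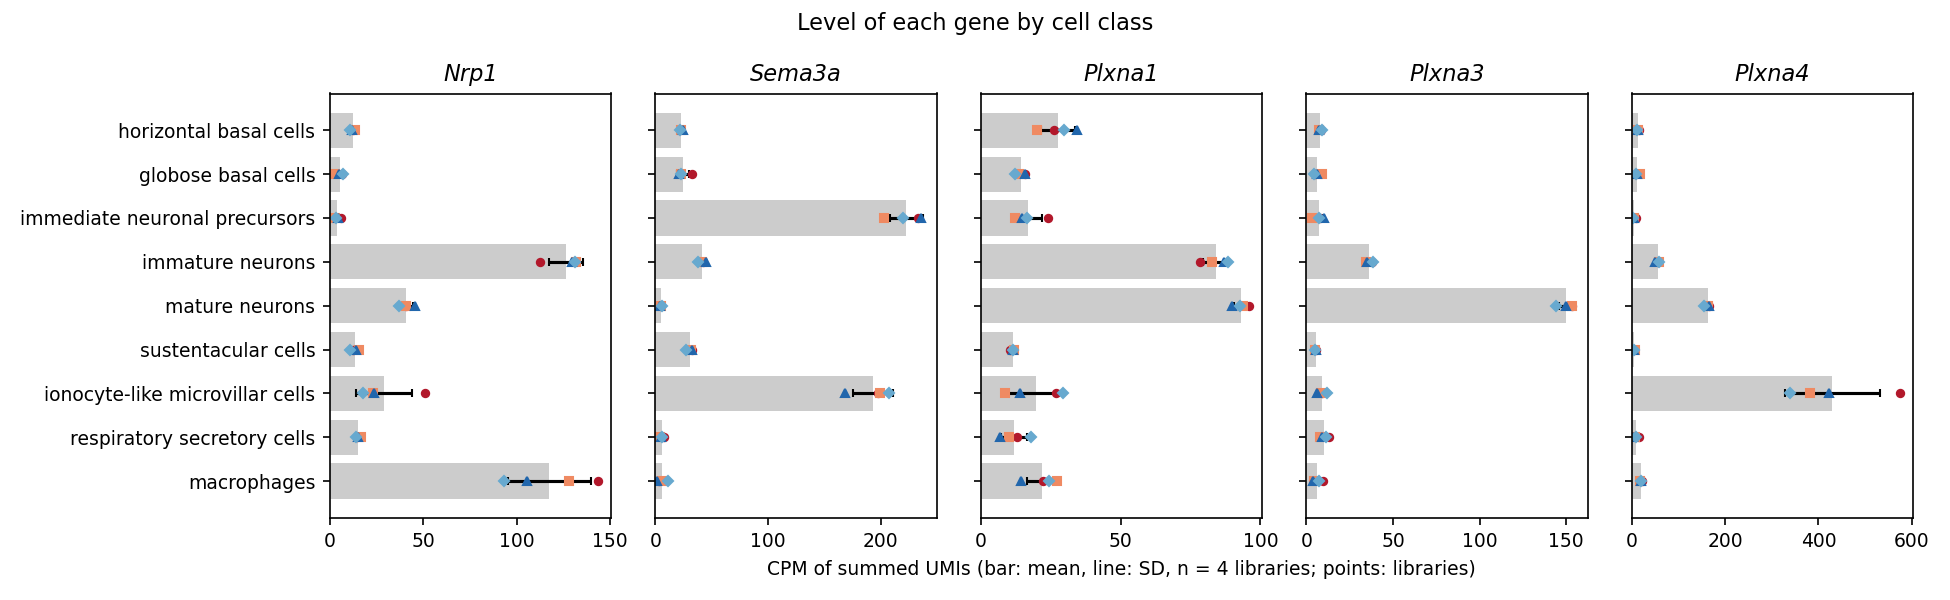
CPM of each gene (x axes, from 0) in the 9 cell classes with at least 50 cells in every library (y axis). Bars are means over 4 libraries, lines are SDs, and coloured points are the libraries; Sema3a was highest in immediate neuronal precursors (223 CPM) and ionocyte-like microvillar cells (193 CPM), and Plxna4 in the latter (430 CPM).

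The next comparison asked whether the genes differ between neurons that carry different odorant receptors. A receptor was assigned where the top odorant receptor had at least 3 UMIs and at least 80% of the odorant receptor UMIs, which was met by 17690 of 20518 Omp-positive neurons. Sums were made for the 66 receptors with at least 10 such neurons in every library, 5913 neurons in all. The 4 genes with a mean of at least 1 UMI per sum were tested, and all 4 passed, where 34.5% of 9976 genes were called (edgeR's quasi-likelihood F test over receptors with the library as a block). F was 33.0 for Nrp1 (adjusted p = 2.81e-78), 22.4 for Plxna1 (6.17e-66), 13.8 for Plxna3 (8.98e-48) and 4.28 for Plxna4 (6.55e-15). Sema3a had 251 UMIs in these 264 sums and fell below the minimum. It was tested in 2 alternatives and passed both, with adjusted p = 0.00207 by edgeR with doublets kept and 0.00888 with at least 15 neurons in every library (33 receptors). Of all genes tested in these settings, 3963 of 10581 and 3182 of 10285 were called.

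Nrp1 had the largest SD of log2 CPM between receptors among the 5 genes. Its median over receptors was 30.9 CPM, its highest level 216 CPM, and 4 receptors (Olfr281, Olfr730, Olfr775 and Olfr820) had no Nrp1 UMI at all. It was highest with Olfr309, at 255, 235, 184 and 189 CPM in the 4 libraries, followed by Olfr15, Olfr1301 and Olfr166 with means of 191, 187 and 185 CPM, and these 4 receptors overlapped. This SD was 1.39 between receptors and 0.47 between libraries of 1 receptor. Across the 66 receptors the correlation of log2 CPM (prior count 2) between libraries was r = 0.877 to 0.916 over the 6 pairs, and r = 0.925 (rho = 0.901) between summed females and summed males. Points of such a correlation share the receptor and the unequal number of neurons, not the library.

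Plxna1 ranged from 5.60 to 204 CPM between receptors with a median of 66.1. It was highest with Olfr728, at 227, 225, 149 and 214 CPM, which Olfr1271 (mean 203) overlapped, and lowest with Olfr727, at 6.14, 6.20, 5.37 and 4.70 CPM. Plxna3 ranged from 24.5 CPM with Olfr1213 to 314 CPM with Olfr309, where the libraries had 286, 386, 329 and 254 CPM, and its median was 149. Plxna4 varied least among the plexins, from 74.1 CPM with Olfr731 to 249 CPM with Olfr1301. Between females and males r was 0.901 for Plxna1, 0.839 for Plxna3, 0.528 for Plxna4 and 0.333 for Sema3a. For Plxna4 and Sema3a the SD between receptors, 0.35 and 0.36, was below that between libraries, 0.39 and 0.53. Sema3a reached 34.0 ± 18.2 CPM (SD, n = 4) with Olfr1213, from 30 UMIs, and 8 receptors had no Sema3a UMI.

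Across receptors Nrp1 and Plxna3 went together and against Plxna1 and Sema3a, while Plxna4 followed neither pair closely. Nrp1 in 1 sex was set against each other gene in the other sex, so that no library entered both sides, and the 2 directions were averaged over 66 receptors. Nrp1 went down as Plxna1 went up (mean r = -0.760) and up with Plxna3 (0.699), while its relation to Sema3a was negative (-0.429) and that to Plxna4 weak (0.32). Plxna1 and Plxna3 were also opposed (-0.756). Sema3a went with Plxna1 (0.420) and against Plxna3 (-0.482), the latter -0.307 without female 1. The relation of Nrp1 to Plxna4 was 0.149 over 41 receptors without cells under 5000 UMIs. These correlations are descriptions over receptors, which share libraries and depth. Nrp2 showed little relation to Nrp1 (0.146), although its own level held between the sexes (r = 0.884).

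**Figure D4:**
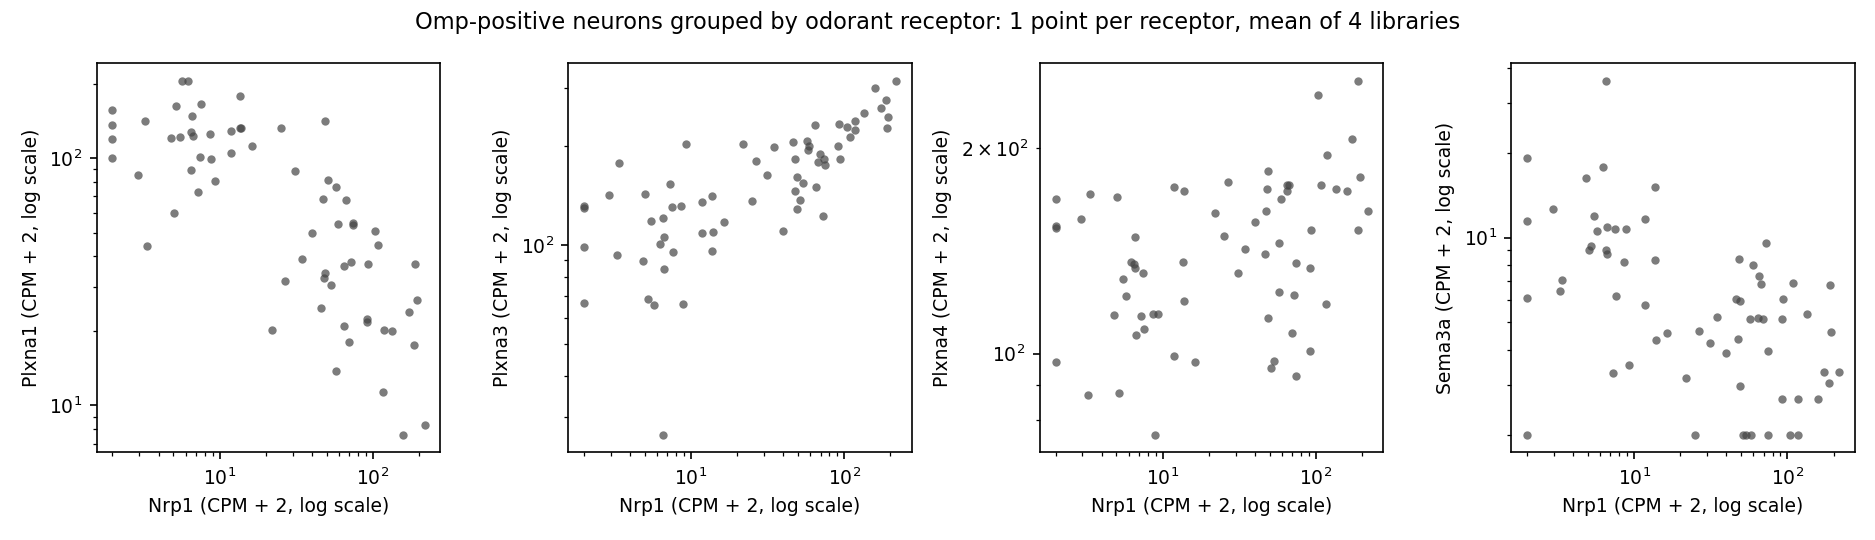
Mean CPM over 4 libraries plus 2, on log axes, of Nrp1 (x axis) against Plxna1, Plxna3, Plxna4 and Sema3a (y axes) in Omp-positive neurons, with 1 point for each of 66 odorant receptors. Plxna1 and Sema3a went down and Plxna3 went up along Nrp1, and Plxna4 had no clear course.

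Receptors were ranked by Nrp1 in 1 sex and read in the other. The 10 receptors with the highest Nrp1 in females had 165 and 151 CPM of Nrp1 in male 1 and male 2, and the 10 lowest had 4.61 and 1.91 CPM. The same males had 19.2 and 19.5 CPM of Plxna1 in the high set and 129 and 149 CPM in the low set. Plxna3 was at 258 and 226 CPM in the high set against 99.96 and 100.1 CPM in the low set. Sema3a, from 6 and 29 UMIs, was at 1.48 and 1.62 CPM against 7.18 and 9.56. Plxna4 was at 187 and 157 CPM against 128 and 137. Ranking in males and reading females gave 152 and 141 CPM of Nrp1 in the high set against 8.03 and 3.71, with Plxna1 at 13.4 and 15.8 against 115 and 113 CPM. The libraries of the high and low sets did not overlap for any of these genes in either reading, although the 2 rankings did not pick the same receptors: Olfr728, for example, was among the 10 lowest in females only. Ranked by Sema3a itself in females, the 10 highest receptors had 8.56 and 12.7 CPM of Sema3a in males and the 10 lowest 2.40 and 1.28. Ranked in males, they had 10.9 and 7.16 CPM in females against 4.66 and 6.29.

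A pair of neighbouring receptor genes, chosen after its values were seen, shows both patterns side by side. Olfr727 (chr14:50123186-50128746, plus strand) and Olfr728 (chr14:50133758-50142680, minus strand) are neighbours in GRCm38. Neurons with Olfr727 (186 neurons) had 151, 143, 164 and 169 CPM of Nrp1, and those with Olfr728 (158 neurons) had 0, 5.49, 6.92 and 2.52 CPM, with no overlap. Plxna1 was at 5.60 ± 0.710 CPM (SD, n = 4) with Olfr727 and at 204 ± 37.1 with Olfr728. Plxna3 was at 298 ± 44.9 and 63.5 ± 9.25 CPM, while Plxna4 was at 171 ± 9.78 and 120 ± 22.7.

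The same order was present before maturity. The 66 receptors were divided into 3 sets of 22 by their Nrp1 level in Omp-positive neurons, and immature neurons assigned to the same receptors, which are other cells of the same libraries, were read in each set. Their Nrp1 was at 221, 276, 285 and 230 CPM in the high set (176 neurons), at 163, 154, 147 and 156 CPM in the middle set (141 neurons) and at 28.9, 28.7, 28.6 and 29.1 CPM in the low set (120 neurons, 45 UMIs). The 3 sets did not overlap. Plxna1 ran the other way, at 33.1 ± 2.41, 65.0 ± 17.6 and 106 ± 28.5 CPM (SD, n = 4), and every library of the high set lay below both others, which overlapped. Sema3a was at 16.7 ± 5.85, 27.2 ± 6.73 and 46.6 ± 9.30 CPM, from 41, 53 and 73 UMIs, and its high and low sets did not overlap. Plxna3 was at 62.3 ± 10.4, 41.3 ± 3.67 and 28.6 ± 3.92 CPM, with no overlap of the 3 sets. Plxna4 was at 85.3 ± 13.7, 80.2 ± 17.6 and 39.9 ± 13.002 CPM, and only the low set stood apart.

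Mature neurons of the same sets had 109 ± 7.27, 27.4 ± 2.09 and 3.09 ± 1.23 CPM of Nrp1, below the immature neurons of their set in every library. These mature Nrp1 values chose the sets and are given as a description. Plxna1 showed no common direction with maturation: it was at 24.4 ± 2.91 CPM in the mature neurons of the high set, below the immature ones, and at 127 ± 6.98 in the low set, where the libraries of the 2 stages overlapped. Plxna3 was above the immature level in all 3 sets, at 228 ± 11.8, 150 ± 16.3 and 106 ± 9.11 CPM.

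**Figure D5:**
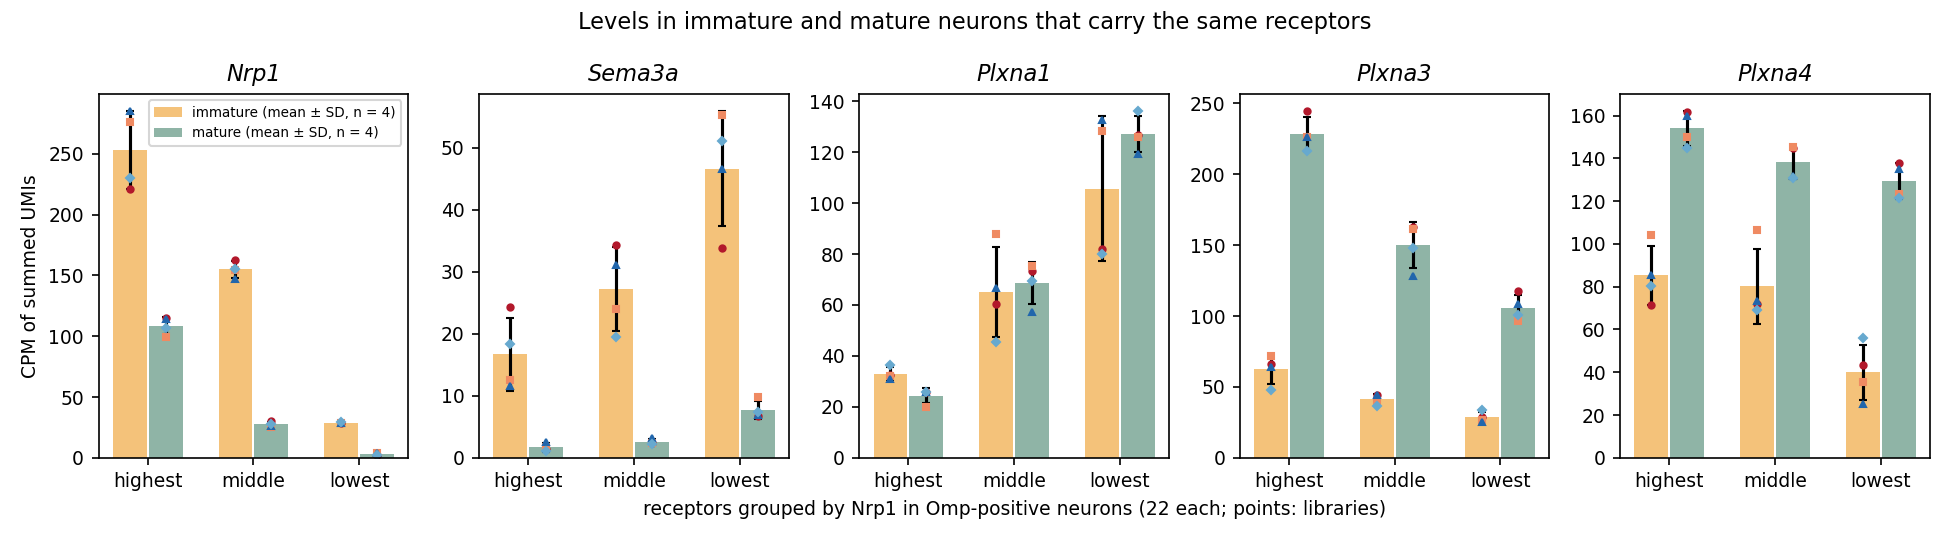
CPM (y axes, from 0) of each gene in immature and mature neurons of receptors grouped by their Nrp1 level in Omp-positive neurons (x axes, 22 receptors per set). Bars are means ± SD over 4 libraries and coloured points are the libraries; immature Nrp1 was at 253, 155 and 28.9 CPM in the high, middle and low sets, and Plxna1 at 33.1, 65.0 and 106 CPM.

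The genes most like each of the 5 across receptors were taken from 9972 genes by the same correlation between sexes over 66 receptors. For Nrp1 these were Ckb (r = 0.799), Tmem64 (0.793) and Tuba4a (0.791), and those most opposed were Olig2 (-0.852), Olig1 (-0.846) and Cd9 (-0.846). Tmem64 also led for Plxna3 (0.861), followed by Efr3b and Pde7b. Plxna1 was most like Tmsb4x (0.874), the actin-binding thymosin, then Abcd2 and Cflar. Plxna4 was most like Stoml3 (0.609), a protein of olfactory cilia. Sema3a was most like Dgki (0.558), Olig2 (0.527) and Olig1 (0.507), and Olig1 and Olig2 were also the genes most opposed to Nrp1.

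The sexes were compared in mature and in immature neurons, 2 libraries against 2. None of the 5 genes was called by edgeR in mature neurons, where 0.007% of 14291 genes were called, namely the Y-linked Eif2s3y, named after its value was seen. Ddx3y, with 0 UMIs in both female libraries and 2728 and 2715 in the male ones, was not called. The test thus missed a Y-linked difference, and the lack of a call cannot exclude a sex difference of the 5 genes. The log2 differences of male over female were 0.048 for Nrp1 (SE 0.088), 0.036 for Sema3a (SE 0.13), 0.015 for Plxna1 (SE 0.052), -0.034 for Plxna3 (SE 0.045) and 0.0033 for Plxna4 (SE 0.055). None was called in immature neurons either, where 0.273% of 12458 genes were called. The largest value there was that of Nrp1, 0.13 (SE 0.085, adjusted p = 0.677 by edgeR), and its immature values overlapped between the sexes. The test of whether the change with maturation differed between the sexes called 0 of 14764 genes by edgeR (585 at an unadjusted p below 0.05) and 23 by DESeq2 (0.154% of those it tested), none of them among the 5. Its values ran from -0.082 for Nrp1 to 0.10 for Plxna4 (SE 0.14 and 0.13).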

How the data were processed

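The 4 libraries were of 5′ single-cell RNA, 2 from females and 2 from males. The authors deposited filtered matrices of raw UMI counts per gene and barcode. Per the file headers these were written by Cell Ranger 6.0.2, while the submitters' processing notes name Cell Ranger 5.0.1 and mm10; the annotation and the cell-calling rule are not given in the sources used here. GENCODE M21 held 22362 of the 22399 gene IDs.

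Barcodes with under 500 genes or over 10% mitochondrial UMIs were left out, then doublets scored against simulated ones (8.20% to 8.62% per library). Cells were clustered with leidenalg 0.10.2 at resolution 1, without the 5 genes, and 26 of 42 clusters were named from markers, with thresholds set after the clusters were seen. Sums per library were tested with edgeR 4.0.16 (TMM, filterByExpr or a mean of 1 count per receptor sum, threshold 0.05 after Benjamini-Hochberg adjustment over all genes); the SE is the log2 difference divided by the square root of F. The dispersion trend of the receptor test came from every 10th gene. DESeq2 1.42.0, other gates, filters, scalings and libraries left out were alternatives. Scripts were tested on simulated data. The 5 genes and the lists were chosen with earlier results of these data known; from each list at most 4 genes with the highest mean CPM over the stage sums are named, and up to 3 genes most like each member. Intervals are not given, and SDs cover the 4 libraries only.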

Additional observations from a re-analysis of the deposited data

Results flagged for a closer look

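Of 124 levels given in 4 libraries, 11 had 1 library far from the other 3, and chance gives about 1 in 20. By stage order, Plxna1 in the first maturation bin was at 65.0 CPM in female 1 against 74.5 to 76.2 in the others, and Plxna3 there at 26.9 CPM in male 1 against 29.9 to 30.1. By cell class, Sema3a in globose basal cells was at 32.8 CPM in female 1 against 21.2 to 22.7, and in sustentacular cells at 27.3 CPM in male 2 against 31.8 to 32.6. Nrp1 in the immature neuron clusters was at 113 CPM in female 1 against 129.9 to 131.9, and Plxna4 in the mature neuron clusters at 154 CPM in male 2 against 164 to 165.

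By receptor set, Plxna4 in immature neurons of the middle 22 receptors was at 106 CPM in female 2 against 69.1 to 73.4. Plxna1 in mature neurons of the 22 receptors with the highest Nrp1 was at 20.0 CPM in female 2 against 25.7 to 25.9, and Sema3a in those of the middle 22 at 3.25 CPM in male 1 against 2.26 to 2.42. Nrp1 with Olfr1178 was at 3.73 CPM in female 2 and 0 in the others. Plxna1 with Olfr728 was at 149 CPM in male 1 against 213.9 to 226.8.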

How the results depend on the processing

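Over 56 results and 648 alternatives, 567 were counted as unchanged, 1 call was lost, 34 values changed sign and 46 moved. For tests of a gene, unchanged meant the same side of the threshold and, where there was a direction, the same direction. For counts of genes called it meant within a fixed ratio of the main count, and for correlations within the spread between libraries. The cause was not tested for those below. The lost call was Nrp1 from transitional to mature neurons with gate levels doubled (-0.36). Plxna1 at that step, not called, was 0.0615 without a filter, 0.0313 with no replicate block, 0.16 with gate levels halved, 0.0034 without the mixture clusters (chosen after seeing the data), 0.0324 by DESeq2 and -0.017 to 0.038 with a library left out. Same-numbered libraries did not deviate together (r = -0.0139 in mature and 0.0318 in immature neurons). This gave no sign of a pairing by number but cannot exclude one. With the replicate block the sex test called 139 genes in immature neurons in place of 34 and 1 in mature neurons, no member among them. That test called 9 genes without a filter, 17 with gates halved, 72 with gates doubled, 145 by DESeq2 and 3 to 45 with a library left out. In mature neurons DESeq2 called 197 and leaving out a library 0. The sex-by-stage test called 2 genes without a filter and 23 by DESeq2.

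Sex differences of the members, none called, changed sign as follows. In mature neurons Nrp1 was -0.0013 without cells under 5000 UMIs. Plxna1 was -0.018 without TMM, -0.0080 with gates doubled and -0.0008 without mixture clusters. Plxna4 was -0.029 without TMM, -0.0002 without a filter, -0.0031 with gates halved, -0.0098 without cells under 5000 UMIs, -0.0105 without mixture clusters and -0.0031 by DESeq2. In immature neurons Sema3a was -0.0004 without TMM and -0.0125 with gates doubled, and Plxna3 0.0706 with gates halved. The interaction of Sema3a was 0.0861 with gates doubled and 0.0032 by DESeq2. With a library left out, the mature values ran from -0.066 to 0.154 for Nrp1, -0.044 to 0.113 for Sema3a, -0.042 to 0.065 for Plxna1, -0.085 to 0.011 for Plxna3 and -0.054 to 0.054 for Plxna4, and the immature ones from -0.041 to 0.138 for Sema3a, -0.0018 to 0.122 for Plxna1 and -0.117 to 0.048 for Plxna3.

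The correlation of Nrp1 between the sexes was 0.871 with a prior count of 0.5, 0.947 with 5, 0.879 with at least 5 neurons per library and 0.905 to 0.915 with a library left out. Sema3a gave 0.468 with at least 15 neurons, 0.497 without cells under 5000 UMIs, 0.473 without mixture clusters and 0.146 to 0.377 with a library left out. With at least 5 neurons Plxna1 gave 0.845 and Plxna3 0.791; with a library left out Plxna1 gave 0.828 to 0.885, Plxna3 0.731 to 0.834 and Plxna4 0.263 to 0.596. The DESeq2 likelihood ratio test over receptors was not run. Sema3a had 251 UMIs over 264 receptor sums. Among pairs, Sema3a with Plxna3 was -0.307 without female 1 and Nrp1 with Plxna4 0.149 without cells under 5000 UMIs.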
